A study of Nothobranchius furzeri with 6 samples.

Results

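The genes described here encode the core proteins of the spliceosome and the RNA-binding proteins that steer it. They were taken by name from the gene table of a single-cell RNA-seq study of the ageing retina of the African turquoise killifish (Nothobranchius furzeri), as every entry whose gene name began with SRSF, HNRNP, SF3A, SF3B, SNRP or U2AF in upper or lower case. This gave 50 of 24989 entries, comprising 9 SNRP, 4 U2AF, 3 SF3A, 5 SF3B, 13 SRSF and 16 HNRNP entries. The rule reads gene names and no measured value.

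The neural retina was taken from untreated wildtype females of the inbred GRZ-AD strain at 6 weeks (young), 12 weeks (middle-aged) and 18 weeks (old). Each age had 2 libraries, and a library pooled the retinas of 3 fish at 6 weeks and of 2 fish at 12 and 18 weeks. Cells were captured with 10x Genomics v3 3′ chemistry, and 37243 cells remained after the authors had filtered cells by their number of transcripts. These cells held between 1001 and 19991 unique molecular identifiers (UMIs, each standing for 1 captured transcript). The libraries held 4804 to 7235 cells and 17393089 to 24317894 UMIs, with a median of 2082 to 2574.5 UMIs per cell. The authors annotated 12 cell types, of which 10 had at least 10 cells in each library and were analysed, and 38 of 44 marker entries of those types were highest in their own type. Across libraries, 171 cell barcodes occurred in more than 1 library, and 47 of them (27.5%) had cells of the same type, beside 27.4% for random pairs of cells.

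Splicing removes introns from newly made RNA. Small nuclear ribonucleoproteins, built on a ring of Sm proteins (SNRPB, SNRPD2, SNRPD3, SNRPE, SNRPG) with particle-specific partners, recognise splice sites, U2AF marks the 3′ splice site, and SF3A and SF3B hold the U2 particle at the branch point. SR proteins (SRSF) mostly promote and hnRNP proteins often oppose the use of an exon, so the balance among them helps to set which isoforms a cell makes, and photoreceptors are known for their sensitivity to defects of core splicing factors.

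Levels are given as CPM, the UMIs of an entry divided by all UMIs of the same library and cell type and put on one common scale, and were compared between cell types but not between genes. All 50 entries had at least 1 UMI. In 45 of them the level reached 50 CPM in at least 1 cell type. The other 5 were sparse, namely U2AF2 (XLOC_011271) with 3 UMIs, HNRNPA3 (XLOC_001505) with 55, HNRNPUL2 with 1187, HNRNPA0 (XLOC_012280) with 1720 and HNRNPA0L with 2855. Several names recur, since fish often keep duplicate genes, and reads of near-identical copies cannot be assigned with certainty. SRSF3(2OF2) named 3 entries, of which XLOC_016539 was matched to srsf3a in RefSeq and is called srsf3a here, while XLOC_011520 and XLOC_016163 carried the further names srsf7 and srsf3 in the table. The entry HNRNPA0L was matched by gene ID to gzf1 in RefSeq, so its name is uncertain.

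Together the 50 entries took 0.528% ± 0.0206 (SD, n = 6) of UMIs in the sum of all cells. Their share was highest in differentiating cells, at 0.852% ± 0.0604 (SD, n = 6). It was 0.655% ± 0.0257 in bipolar cells and 0.602% ± 0.0499 in oligodendrocytes, and lowest in Müller glia (0.343% ± 0.0121) and immune cells (0.350% ± 0.0325). The libraries of differentiating cells (0.762 to 0.899%) did not overlap those of bipolar cells (0.629 to 0.695%), while those of Müller glia and immune cells did overlap. In the few cells of the retinal pigment epithelium (51 cells) and the red blood cells (28 cells) the pooled share was 0.332% and 0.139%.

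Of the 45 entries that reached 50 CPM, 33 (73.3%) were highest in differentiating cells, where 8.46% of all 8482 entries at that level had their highest value. No test was made of this, because the cell types were clustered from the same cells and genes. Bipolar cells were highest for 5 entries, oligodendrocytes for 4 and amacrine cells for 3. The lowest level fell in immune cells for 17 entries, in Müller glia for 14, in cones for 8, in rods for 5 and in retinal ganglion cells for 1. The heatmap of relative levels shows these patterns.

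**Figure D1:**
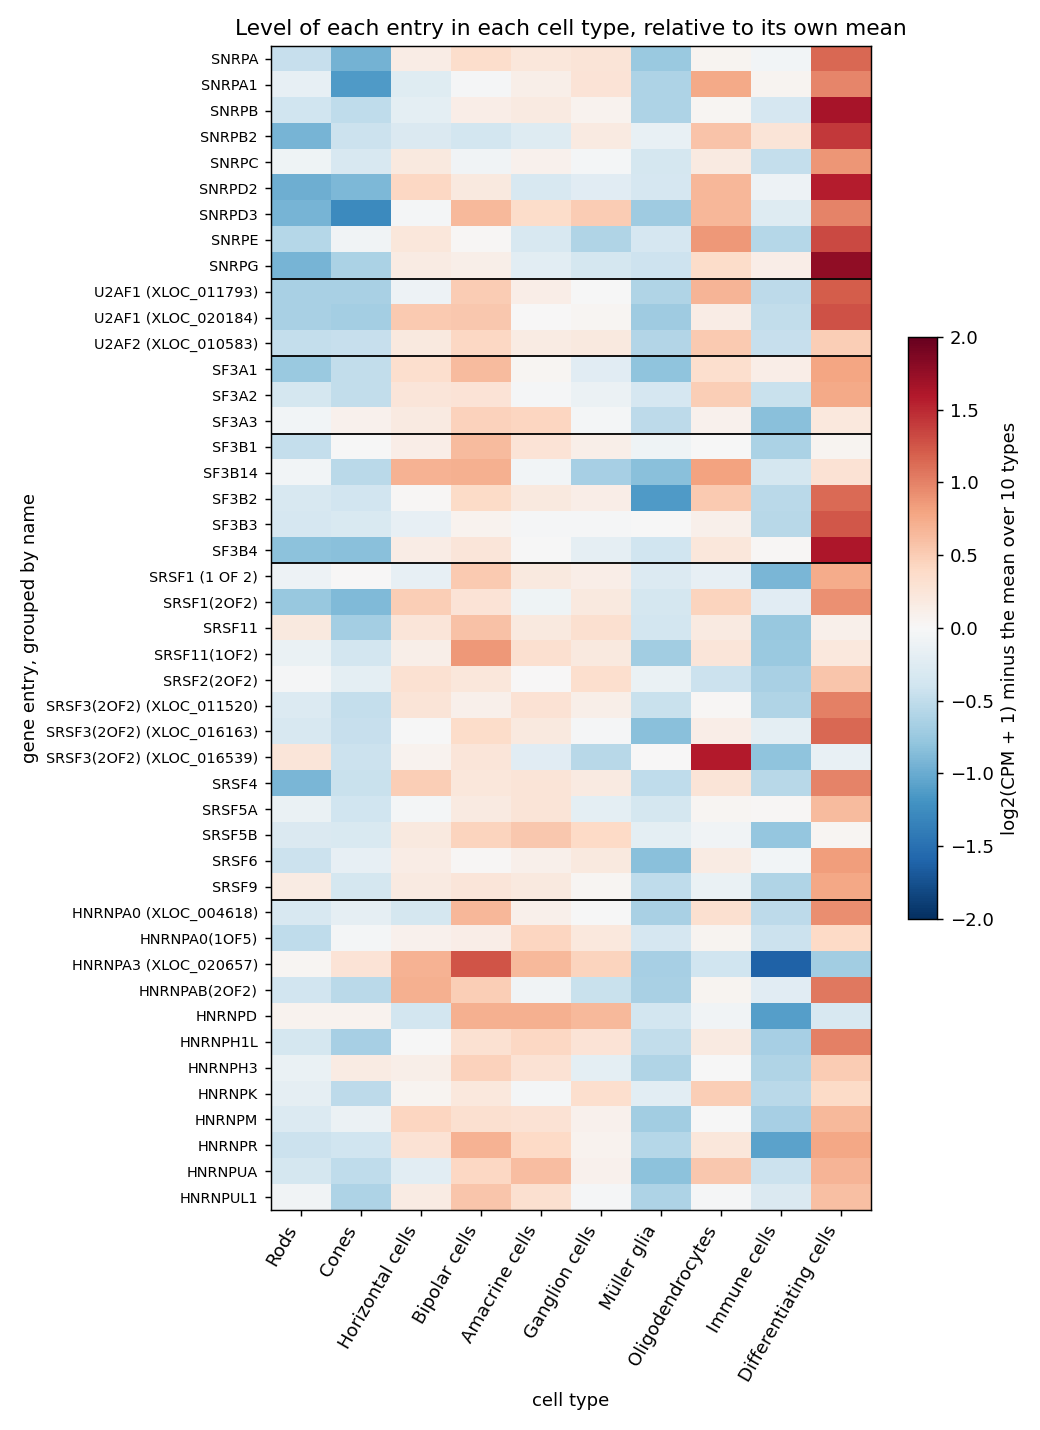
Heatmap of the 45 entries that reached 50 CPM (rows, grouped by name) in 10 cell types (columns); colour gives log2(CPM + 1), averaged over 6 libraries, minus the mean of that entry over the 10 types. The column of differentiating cells is the highest for 33 rows, and srsf3a (XLOC_016539) stands out in oligodendrocytes.

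The SNRP entries were the most uniform group, since each of the 9 was highest in differentiating cells. SNRPG, an Sm ring protein, had 403 ± 75.0 CPM there (SD, n = 6) and 150 ± 38.5 CPM in oligodendrocytes, the next type, and 60.6 ± 17.2 CPM in rods, the lowest. SNRPD3, another Sm protein, had 282 ± 27.2 CPM in differentiating cells and 57.9 ± 9.68 CPM in cones. SNRPB2, a protein of the U2 particle, had 53.5 ± 10.9 CPM in differentiating cells and 9.69 ± 3.38 CPM in rods. The differentiating-cell libraries lay above those of the next type without overlap for SNRPG, while for SNRPD3 and SNRPB2 the ranges of the top 2 types overlapped.

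How evenly an entry was spread over cell types was summarised by tau, which is 0 for equal levels in all 10 types and 1 for a single type, after every library and type had been thinned to 182962 UMIs. It was computed on log2(CPM + 1). The median tau was 0.147 over the 45 entries and 0.399 over the 8482 entries at that level. The highest values were those of SNRPB2 (0.314 ± 0.0765, SD over 6 libraries), of the SF3B component SF3B4 (0.305 ± 0.0600) and of U2AF1 (XLOC_011793, 0.253 ± 0.0399). These 3 had low mean levels over types (21.6, 34.9 and 39.6 CPM), so their tau rests on few UMIs. SNRPG and HNRNPA3 (XLOC_020657) had lower tau (0.225 and 0.193) at wider ranges between types (6.64-fold and 7.64-fold, against 3.78-fold for this U2AF1). The lowest were those of HNRNPA0(1OF5) (0.0624 ± 0.0161), the SR-related SRSF11 (0.0950 ± 0.0243) and HNRNPK (0.104 ± 0.0228). HNRNPA0(1OF5) ranged from 194 CPM in rods (183 to 207 CPM over libraries) to 373 ± 49.7 CPM in amacrine cells.

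Among the splice site and branch point factors, SF3B4 had 96.8 ± 23.7 CPM in differentiating cells and 16.8 ± 2.64 CPM in cones. U2AF1 (XLOC_020184) was at 196 CPM in differentiating cells and 48.5 CPM in Müller glia. SF3B14, known in RefSeq as sf3b6 and lying next to the branch point adenosine in human spliceosomes, differed from these. It was highest in oligodendrocytes (295 ± 37.0 CPM), bipolar cells (277 ± 19.9 CPM) and horizontal cells (274 ± 12.8 CPM), 3 types whose libraries overlapped, and lowest in Müller glia (94.6 ± 8.11 CPM). SF3A3 was highest in bipolar cells (57.9 ± 3.25 CPM) and lowest in immune cells (22.9 ± 2.88 CPM).

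Of the SR proteins, the entry XLOC_011520 (second name srsf7) had 400 ± 51.9 CPM in differentiating cells and 131 ± 23.0 CPM in immune cells. The entry srsf3a departed from its group. In oligodendrocytes it had 459 ± 229 CPM, with libraries from 238 to 847 CPM, while rods followed with 180 ± 46.2 CPM. Oligodendrocytes were above each of the other types in 6 of 6 libraries, although only 26 to 85 oligodendrocytes were captured per library, and its large spread followed age, as described below.

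Of the hnRNP proteins, HNRNPA0 (XLOC_004618) had 671 ± 93.9 CPM in differentiating cells and 224 ± 28.9 CPM in Müller glia. HNRNPA3 (XLOC_020657) had its highest level in bipolar cells, at 183 ± 30.9 CPM, and its lowest in immune cells, at 23.9 ± 7.94 CPM, a 7.64-fold range. The bipolar libraries (158 to 231 CPM) did not overlap those of horizontal cells, the next type (104 to 146 CPM).

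The sparse HNRNPA0 (XLOC_012280) was concentrated in bipolar cells. It had 38.5 ± 4.31 CPM in bipolar cells, 7.77 ± 1.96 CPM in amacrine cells and 0.738 ± 0.799 CPM in rods, and the bipolar libraries (34.8 to 45.5 CPM) overlapped those of no other type. With each cell thinned to 1000 UMIs, 3.93% of bipolar cells and 0.0543% of rods held a UMI of it (7.46% and 0.217% before thinning), at median depths of 1714 to 2344.5 UMIs in bipolar cells and 1740 to 2774.5 UMIs in rods. Within bipolar cells it was uneven. Cluster 25 of the deposited annotation (518 cells) had 176 CPM, with libraries from 140 to 202 CPM, and cluster 10 (1591 cells) had 109 CPM. Cluster 16 (954 cells), also of bipolar cells, held 1 UMI in 2194136, or 0.456 CPM. No library of clusters 25, 10 and 12 fell below 74.2 CPM, and none of the 12 clusters outside bipolar cells with at least 10 cells in every library exceeded 24.1 CPM. The bar chart of this entry by cluster shows the order.

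**Figure D2:**
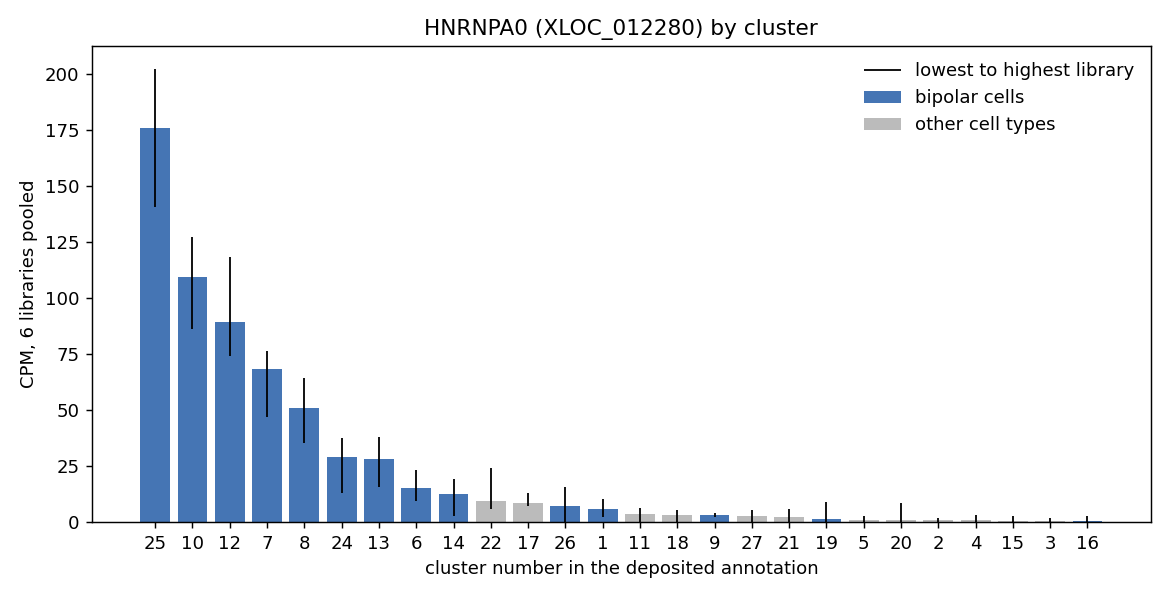
Level of HNRNPA0 (XLOC_012280) in CPM (6 libraries pooled, bars) in each cluster with at least 10 cells in every library, with a line from the lowest to the highest library. Bipolar clusters range from 176 CPM in cluster 25 to 0.456 CPM in cluster 16, and each cluster of another type pooled to 9.59 CPM or less.

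Change with age was tested on UMIs summed over the cells of a library, in all cells and in each cell type, with edgeR's quasi-likelihood test and p-values adjusted by Benjamini-Hochberg over all genes of a fit. A gene with adjusted p under 0.05 is called. Changes are log2 fold changes with standard errors (SE). For edgeR the SE was taken as the absolute change divided by the square root of the test's F statistic. CPM values by age are scaled by TMM, the trimmed mean of M-values, which evens out differences in composition between libraries. A pool of fish is 1 sample here, so n = 2 per age.

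Most of these genes did not pass the test with age. Between 6 and 18 weeks, 1 of 49 tested entries was called in the sum of all cells, lower at 18 weeks, while 3.63% of all 18964 genes tested were called. The tests within the 10 types covered 467 pairs of an entry and a cell type, and 11 pairs of 6 entries were called, 6 higher and 5 lower. The background over 108708 gene and type pairs was 1.30% higher and 1.57% lower, so the 2.36% of member pairs called lay near it. DESeq2 called 3 of the 467 pairs (2 higher, 1 lower), each also called by edgeR, and, over all cells together, 2 entries (1 higher, 1 lower). Changes of 2-fold or more made up 0.428% of member pairs (2 pairs) and 5.35% of all pairs. These shares were not matched for level, since 45 of the 50 entries but only 8482 of all 24989 reached 50 CPM in a type.

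At 18 weeks SNRPG was lower in the summed cells and in 4 cell types. In all cells the 6-week libraries had 135 and 157 CPM, the 12-week libraries 125 and 113 CPM and the 18-week libraries 91.0 and 80.9 CPM. Every 18-week library lay below every younger one. The change was −0.77 ± 0.13 (log2, SE), or 0.588-fold, with an edgeR adjusted p of 0.0343.

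Within bipolar cells SNRPG had 152 and 165 CPM at 6 weeks, 136 and 132 CPM at 12 weeks and 94.9 and 87.9 CPM at 18 weeks. It fell by 0.79 (SE 0.10, edgeR adjusted p 0.00117), and 3.61% of genes were called lower in bipolar cells. In rods it had 75.7 and 84.4 CPM at 6 weeks, 66.1 and 55.7 CPM at 12 weeks, and 44.4 and 41.1 CPM at 18 weeks. The groups at 6 and 18 weeks did not overlap in either type, and the fall in rods was 0.90 (SE 0.21, edgeR adjusted p 0.0261, background 1.58% lower).

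In cones the 6-week libraries had 83.5 and 93.6 CPM, the 12-week libraries 93.4 and 68.2 CPM and the 18-week libraries 53.5 and 59.8 CPM. Again both old libraries were below both young ones, and SNRPG fell by 0.65 (SE 0.18, edgeR adjusted p 0.0437, background 1.85% lower). In horizontal cells it had 134 and 157 CPM at 6 weeks, 146 and 143 CPM at 12 weeks and 108 and 102 CPM at 18 weeks. This was a fall of 0.48 (SE 0.13, edgeR adjusted p 0.0493, background 2.68% lower), with no overlap between 6 and 18 weeks.

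The log2 fold change of SNRPG was below 0 in each of the 10 types, from −0.43 in Müller glia to −0.98 in immune cells, and in each the 18-week libraries lay below both 6-week libraries, a separation seen in 23.0% of all gene and type pairs. In the 6 types that were not called the adjusted p was 0.144 to 0.394 (edgeR). A change below 0 in 10 of 10 types was not particular to SNRPG. SNRPB, SNRPD2, SF3B14 and HNRNPM had it too, each with 0 types called, while SRSF5A was above 0 in 10 of 10. Differentiating cells, where SNRPG was highest, had 444 and 485 CPM at 6 weeks, 480 and 451 CPM at 12 weeks and 288 and 352 CPM at 18 weeks. Those cells made up 3.74% ± 0.803 of the cells at 6 weeks and 1.85% ± 1.05 at 18 weeks (SD, n = 2). Over the same ages rods, where SNRPG was lowest, went from 7.79% to 13.0% of cells, immune cells from 1.31% to 3.80% and amacrine cells from 11.5% to 7.42%. The part of these shares in the change over all cells was not tested.

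The call of SNRPG in bipolar cells held under each of 14 alternative settings, while that in horizontal cells held under 3 of 14 and that in cones under 6 of 14. In all cells the adjusted p rose to 0.141 and 0.195 without the 6-week replicates 1 and 2, to 0.0698 and 0.103 without the 18-week replicates 1 and 2, and to 0.0520 with cells thinned to 1000 UMIs, at log2 fold changes of −0.87 to −0.67. In cones it was 0.0530, 0.231, 0.300 and 0.154 without those 4 libraries in the same order, and in horizontal cells 0.0510, 0.295, 0.183 and 0.296. In rods it was 0.153, 0.188 and 0.328 without 6-week replicate 2 and 18-week replicates 1 and 2, and with thinned cells the change there was −0.40 (adjusted p 0.699), while in cones it was −1.53 (adjusted p 0.0158).

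**Figure D3:**
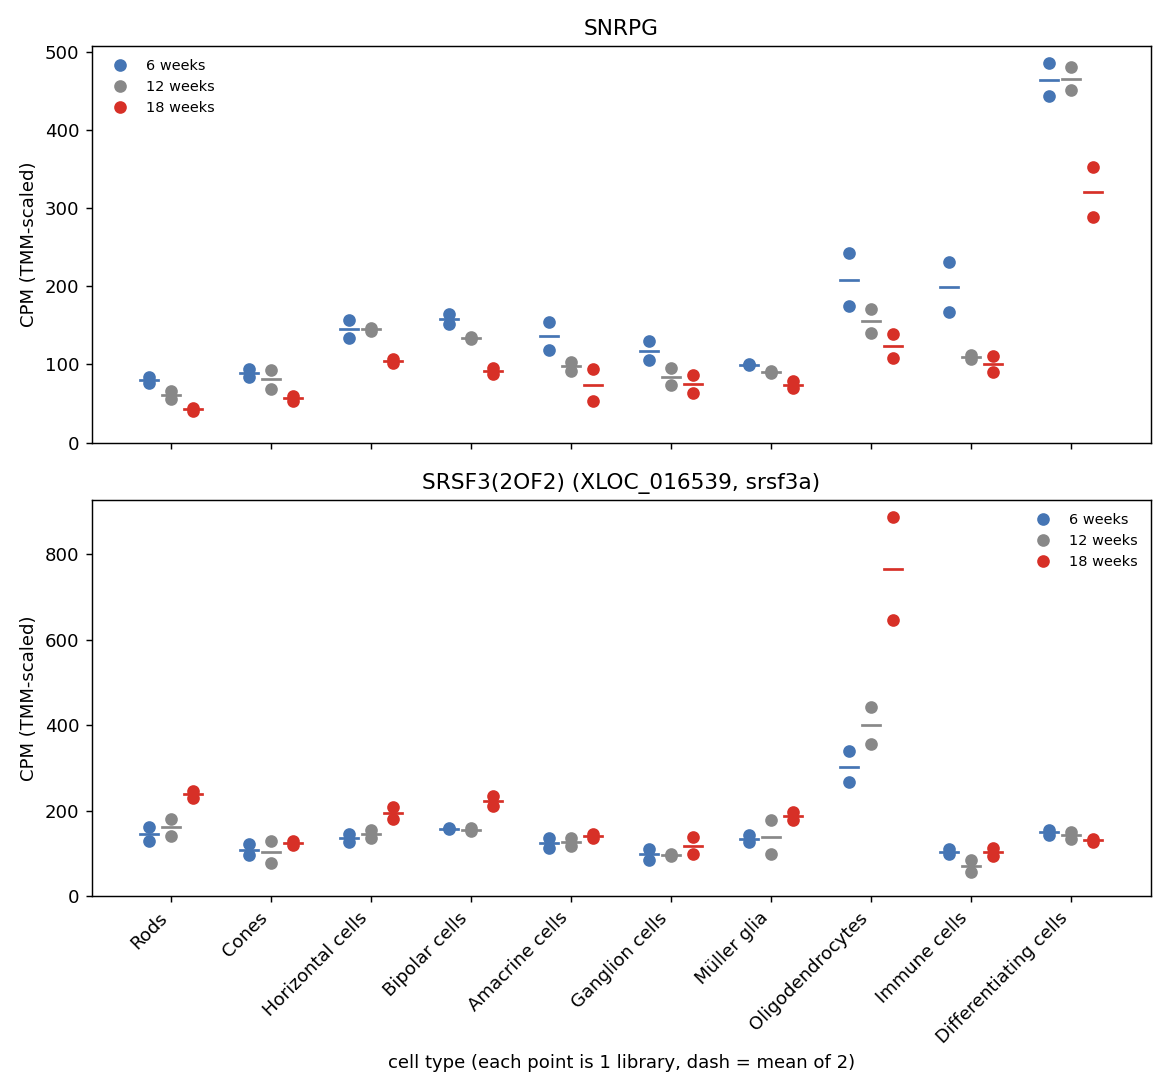
CPM (scaled by TMM, the trimmed mean of M-values) of SNRPG and of srsf3a (XLOC_016539) in 10 cell types; each point is 1 library, coloured by age, and a dash is the mean of the 2 libraries. SNRPG at 18 weeks lies below both 6-week libraries in 10 of 10 types, and srsf3a rises in oligodendrocytes from 339 and 267 CPM at 6 weeks to 645 and 886 CPM at 18 weeks.

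The opposite change was seen for srsf3a, an SR protein that in mammals also promotes export of messenger RNA. In oligodendrocytes it had 339 and 267 CPM at 6 weeks, 442 and 357 CPM at 12 weeks and 645 and 886 CPM at 18 weeks. Both old libraries lay above all others, and the rise was 1.32 ± 0.22 (log2, SE), or 2.49-fold, with an edgeR adjusted p of 0.00780 where 0.489% of genes were called higher. The 18-week replicate 2, with 26 oligodendrocytes, had the highest value, and without it the change was 1.12 with an adjusted p of 0.0685.

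In bipolar cells srsf3a had 158 and 159 CPM at 6 weeks, 159 and 153 CPM at 12 weeks and 212 and 234 CPM at 18 weeks. The younger libraries lay close together and both old ones above them, a rise of 0.49 ± 0.10 (edgeR adjusted p 0.0151, background 2.73% higher). In horizontal cells it had 146 and 127 CPM at 6 weeks, 156 and 136 CPM at 12 weeks and 208 and 181 CPM at 18 weeks. The rise there was 0.51 ± 0.13 (edgeR adjusted p 0.0404, background 1.67% higher), again with no overlap.

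These calls depended on single libraries and settings. In bipolar cells the adjusted p of srsf3a was 0.111 and 0.119 without 6-week replicates 1 and 2 and 0.133 without 18-week replicate 2. In horizontal cells it was 0.218 without 6-week replicate 2 and 0.236 and 0.109 without 18-week replicates 1 and 2, and also 0.165 by DESeq2 and 0.126 with thinned cells. In rods srsf3a had 163 and 130 CPM at 6 weeks and 247 and 230 CPM at 18 weeks. This gave 0.71 on the log2 scale with an adjusted p of 0.0926 (edgeR). With no filter on low counts and with only the 4 libraries compared, the rise in rods was called (0.75 and 0.70, edgeR adjusted p 0.0337 and 0.0395). In differentiating cells the change of srsf3a was −0.19 (edgeR adjusted p 0.839). The 18-week libraries lay above both 6-week libraries in 6 types and below them in 1, where 23.1% and 23.0% of all gene and type pairs did so. In the sum of all cells its adjusted p was 0.0696 by edgeR and 0.0183 by DESeq2.

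Neither of the other entries of the SRSF3 name passed the edgeR test in a cell type, although XLOC_016163 in cones (−0.51) was called when 1 or both 12-week libraries were left out, and the difference between copies was not tested. XLOC_011520 had a log2 fold change of 0.12 ± 0.12 and XLOC_016163 of −0.20 ± 0.12 in all cells, where srsf3a had 0.53 ± 0.13 (edgeR adjusted p 0.599, 0.377 and 0.0696). XLOC_011520 was above 0 in 8 of 10 types, while XLOC_016163 was below 0 in 7 types. For XLOC_011520 the old libraries lay above both young ones in 5 types and below in 0, beside 23.1% and 23.0% of all gene and type pairs.

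The remaining called pairs, named after their values were seen, lay in bipolar and horizontal cells. In bipolar cells SRSF5A, an SR protein, had 93.4 and 98.9 CPM at 6 weeks and 120 and 137 CPM at 18 weeks, a rise of 0.42 ± 0.11 (edgeR adjusted p 0.0347). HNRNPA3 (XLOC_020657) had 168 and 162 CPM at 6 weeks and 208 and 222 CPM at 18 weeks in those cells, a rise of 0.38 ± 0.10 (edgeR adjusted p 0.0439). U2AF1 (XLOC_011793), a copy of the small U2AF subunit, had 56.7 and 58.9 CPM at 6 weeks and 46.2 and 38.3 CPM at 18 weeks, and fell by 0.46 (SE 0.12, edgeR adjusted p 0.0386). The 2 ages did not overlap for any of the 3, and the 12-week libraries were closer to the 6-week ones, at 96.3 and 97.1, 170 and 164, and 56.5 and 52.2 CPM respectively. Of all gene and type pairs, 23.1% were separated upward and 23.0% downward, so this adds no support to calls made on the same libraries.

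In horizontal cells SRSF2(2OF2), an SR protein, had 135 and 148 CPM at 6 weeks, 145 and 134 CPM at 12 weeks and 196 and 199 CPM at 18 weeks. It rose by 0.48 ± 0.12 (edgeR adjusted p 0.0359). Its adjusted p was 0.175 and 0.0749 without the 6-week replicates 1 and 2, and 0.133 and 0.197 without the 18-week replicates 1 and 2. Leaving out the same libraries gave 0.217, 0.146 and, without 18-week replicate 2, 0.259 for SRSF5A, and 0.137, 0.202 and 0.316 for U2AF1 (XLOC_011793). For HNRNPA3 (XLOC_020657) each of the 4 ended the call, with adjusted p of 0.175, 0.253, 0.0696 and 0.242. DESeq2 (adjusted p 0.0897 to 0.175), the linear trend (0.0539 to 0.0617) and thinned cells (0.0658 to 0.326) also ended the calls of SRSF2(2OF2), SRSF5A, HNRNPA3 (XLOC_020657) and U2AF1 (XLOC_011793).

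By name group, the changes between 6 and 18 weeks leaned in different directions. Of the 90 SNRP pairs, 79 (87.8%) had a log2 fold change below 0 with a median of −0.28, and of the 130 SRSF pairs, 95 (73.1%) were above 0 with a median of 0.14, while 49.9% of all gene and type pairs were below 0 with a median of 0.00107. The test called 4 SNRP pairs, all of SNRPG and lower, and 5 SRSF pairs, all higher, so the lean is a description of changes that mostly did not pass the test. U2AF had 23 of 30 pairs below 0 (median −0.14, 1 called lower), SF3A 19 of 30 (median −0.09, 0 called) and SF3B 30 of 50 (median −0.07, 0 called). The 137 HNRNP pairs were near balance, with 73 below 0, a median of −0.02 and 1 called higher.

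These counts share libraries and cells across entries, so they were given no test. With plain library totals in place of TMM scaling, SNRP had 76 of 90 pairs below 0 and SRSF 97 of 130 above 0, and without 6-week replicate 2 SNRP had 64 of 90 below 0 (median −0.17). Without 6-week replicate 1 SRSF had 82 of 130 above 0, with a median of 0.06. Thinning cells to 1000 UMIs left 57 of 77 SNRP pairs below 0 and 70 of 114 SRSF pairs above 0.

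**Figure D4:**
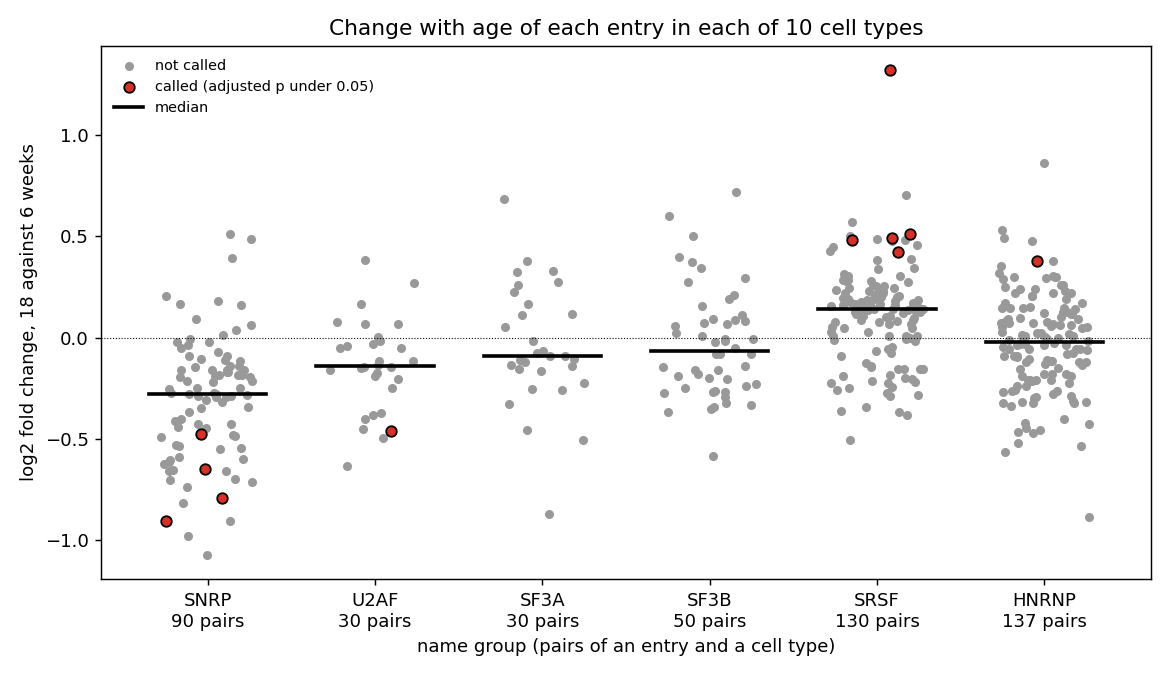
Log2 fold change from 6 to 18 weeks (vertical axis) of each pair of an entry and a cell type, by name group; grey points were not called, red points were called at adjusted p under 0.05 and bars are medians. The SNRP median lies at −0.28 and the SRSF median at 0.14, with the called oligodendrocyte pair of srsf3a at 1.32.

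As shares of UMIs, the 9 SNRP entries together took 0.0915% and 0.102% in the 6-week libraries of all cells, 0.0871% and 0.0853% at 12 weeks and 0.0801% and 0.0777% at 18 weeks. The old libraries lay below both young ones in 7 of 10 types and overlapped them in 3. Such separation is common at 2 against 2 libraries, since among all single gene and type pairs 23.0% had both old libraries below and 23.1% above, beside 62.2% below and 5.56% above for SNRP pairs and 15.4% and 38.5% for SRSF pairs. The 13 SRSF entries took 0.150% and 0.153% at 6 weeks, 0.141% and 0.147% at 12 weeks and 0.161% and 0.177% at 18 weeks. Here the old libraries lay above the young ones in 7 of 10 types. All 50 entries together took 0.542% ± 0.0138 at 6 weeks, 0.506% ± 0.00911 at 12 weeks and 0.536% ± 0.0176 at 18 weeks (SD, n = 2), so their summed share at 6 and 18 weeks overlapped.

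**Figure D5:**
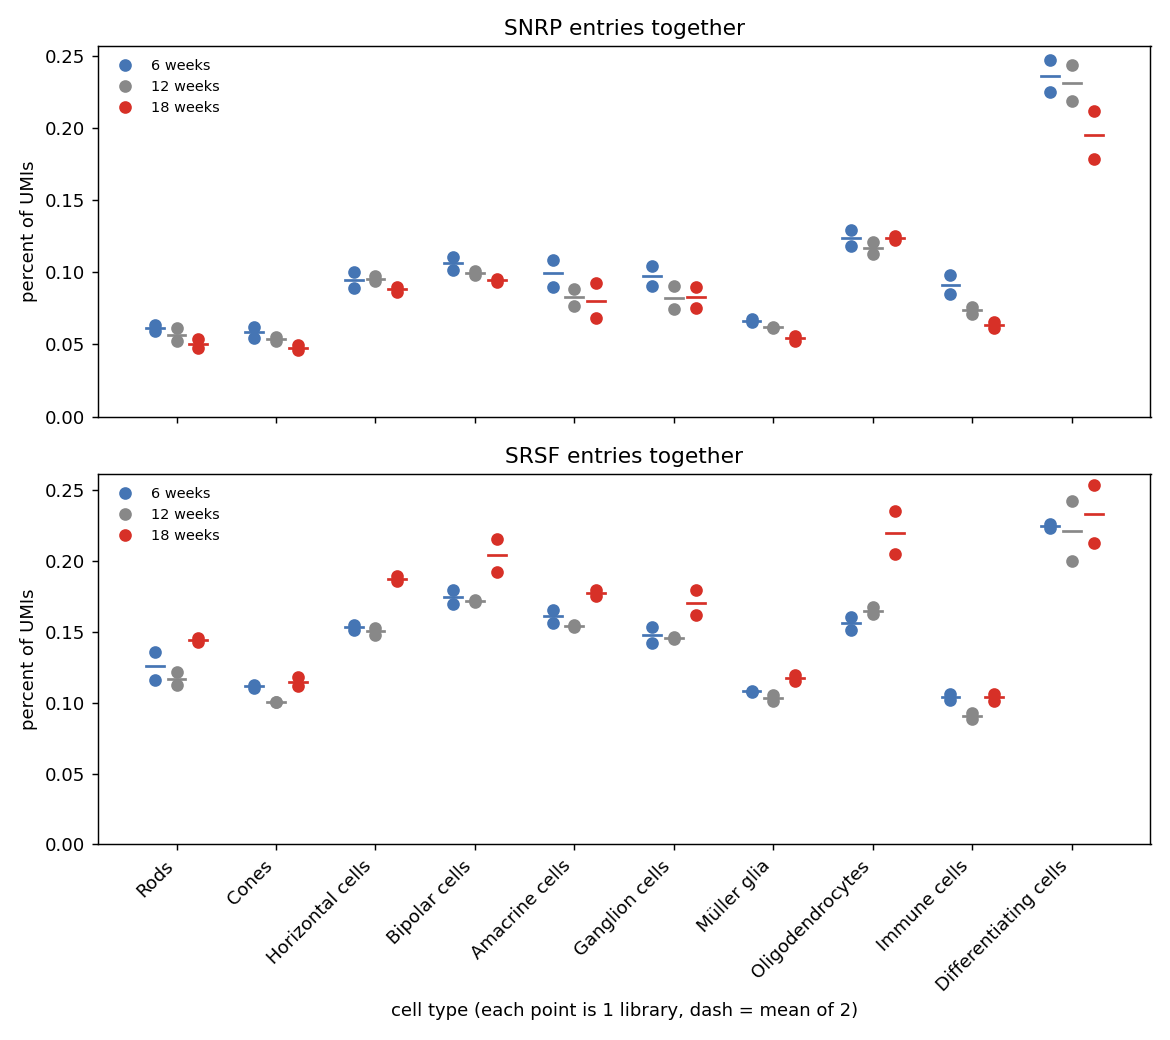
Percent of UMIs on the 9 SNRP entries (top) and the 13 SRSF entries (bottom) in each cell type; each point is 1 library, coloured by age, and a dash is the mean of the 2 libraries. The 18-week SNRP shares are below both 6-week shares in 7 types, and the 18-week SRSF shares are above them in 7 types.

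Other measures moved with age in the same libraries. Immediate early and heat shock genes, which respond to handling of live cells (11 symbols, 17 entries), summed to 6463 ± 137 CPM at 6 weeks, 8161 ± 1524 CPM at 12 weeks and 8919 ± 1056 CPM at 18 weeks in all cells. The 6-week libraries had 6366 and 6560 CPM and the 18-week libraries 9665 and 8172 CPM. Of their 159 pairs, 14 were called higher and 1 lower (edgeR, 18 against 6 weeks), beside a background of 1.30% and 1.57%. The HSPA1A entries XLOC_003379 and XLOC_002541 made up 5 and 3 of the 14 higher pairs. Of the 159 pairs, 75 had a log2 fold change below 0, with a median of 0.03, so the list did not rise throughout. Of the types with called pairs of members, the sum was higher at 18 weeks without overlap in bipolar cells (6009 ± 82.1 to 9912 ± 1741 CPM), horizontal cells (5680 ± 108 to 8016 ± 786 CPM), cones (8451 ± 448 to 11732 ± 1539 CPM) and rods (2764 ± 146 to 3268 ± 113 CPM), and it overlapped in oligodendrocytes (4361 ± 579 to 4161 ± 9.65 CPM). In the types without called members, the sum was higher without overlap in amacrine cells, Müller glia and differentiating cells. It was lower without overlap in immune cells (15739 and 14994 to 13392 and 13449 CPM) and ganglion cells (3073 and 2738 to 2508 and 2128 CPM). Genes of dividing cells (11 entries) had 299.7 and 354 CPM at 6 weeks and 308 and 268 CPM at 18 weeks in all cells, which overlap. Of these 11, 8 had a log2 fold change below 0 there, with a median of −0.38. MKI67 was called lower (−1.68, SE 0.32, edgeR adjusted p 0.0424), from 7.98 and 16.1 to 3.74 and 3.75 CPM, beside 3.63% of all genes called. Without overlap the sum of the dividing-cell genes was lower at 18 weeks in oligodendrocytes (194 and 289 to 93.7 and 153 CPM) and immune cells (574 and 526 to 207 and 360 CPM). It was also lower in cones (486 and 644 to 453 and 481 CPM) and horizontal cells (78.3 and 81.9 to 63.8 and 70.4 CPM). In bipolar cells (213 and 226 to 254 and 234 CPM) and rods (475 and 509 to 577 and 545 CPM) it was higher without overlap. The ages overlapped in the other types. Of the 11 dividing-cell entries, 3 had enough counts to be tested in cones and in horizontal cells, 5 in rods and in bipolar cells and 2 in oligodendrocytes. The sums there are not read as numbers of dividing cells. The part of the handling genes and dividing-cell genes in the changes above was not tested.

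Between 6 and 12 weeks, edgeR called 0 of 49 entries over the whole retina (unadjusted p under 0.05 in 0, and 0 calls with DESeq2), where 0% of all genes were called. Within cell types it called 0 of 467 pairs, with 7 at an unadjusted p under 0.05 and 0 by DESeq2, beside a background of 0.0782% higher and 0.0883% lower. Between 12 and 18 weeks edgeR called 0 of 49 entries over the whole retina (unadjusted p under 0.05 in 7, 0 calls with DESeq2, background 0.0686%). Of the 467 pairs 2 were called (background 0.231% higher, 0.345% lower), both in bipolar cells. They were a rise of srsf3a of 0.51 ± 0.10 (edgeR adjusted p 0.0308) and a fall of SNRPG by 0.55 (SE 0.11, edgeR adjusted p 0.0240). These 2 comparisons share the 12-week libraries.

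Whether the change from 6 to 18 weeks differed between cell classes was tested with limma on within-library differences of log2 CPM. Between Müller glia, which span the retina and support its neurons, and the mean of 6 neuron types, 0 of 46 entries were called (2 at an unadjusted p under 0.05), where 0.252% of 11499 genes were. The 2 entries with the smallest p were HNRNPA0 (XLOC_012280) and SRSF1 (1 OF 2). For SRSF1 (1 OF 2), a founding SR protein, the glial minus neuronal difference was 0.14 and −0.02 at 6 weeks, −0.18 and −0.11 at 12 weeks and −0.52 and −0.48 at 18 weeks. This was a shift of −0.56 ± 0.20 (SE) without overlap, with a limma adjusted p of 0.302. HNRNPA0 (XLOC_012280) passed the filter of 20 CPM through bipolar cells and had 12 UMIs in Müller glia over 6 libraries, so no shift is read from it.

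Between photoreceptors (rods and cones) and the 4 inner retinal neuron types, 0 of 46 entries were called (1 at an unadjusted p under 0.05), and 0% of 10616 genes. SF3B3, a large SF3B subunit, differed by 0.10 and 0.02 at 6 weeks, −0.05 and 0.22 at 12 weeks and 0.36 and 0.52 at 18 weeks. The shift was 0.38 ± 0.16 (limma adjusted p 0.453). HNRNPA0 (XLOC_012280), with 8 UMIs in rods and 18 in cones, gives no readable shift here either. A p that misses the threshold does not show that the cell classes changed alike.

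Other genes of the splicing pathway were read from 6 lists of 109 symbols, 94 of which were found as 125 entries. Between 6 and 18 weeks, edgeR called 7 of their 952 pairs higher and 6 lower, beside the same background of 1.30% and 1.57%. The log2 fold change was below 0 in 535 of the 952. Genes with fewer than 2 called types are named here after their values were seen. Of the core spliceosome (343 pairs, 228 below 0), LSM6 and TXNL4A fell in bipolar cells, by 0.45 and 0.52 (edgeR adjusted p 0.0290 and 0.0279). DESeq2 called 0 of these 343 pairs, so neither fall was called by it. For the factors that assemble Sm rings, edgeR called 0 of 77 pairs (6 at an unadjusted p under 0.05, 0 by DESeq2), and for SR-related proteins 0 of 98 (7 at an unadjusted p under 0.05, 0 by DESeq2).

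The kinases that phosphorylate SR proteins had 3 of 57 pairs called by edgeR, all higher, beside a background of 1.30% higher. DESeq2 called 1 of the 57. CLK4A, a CLK-family kinase, had 424 and 397 CPM at 6 weeks, 511 and 473 CPM at 12 weeks and 527 and 546 CPM at 18 weeks in bipolar cells, a rise of 0.39 ± 0.11 (edgeR adjusted p 0.0472). In horizontal cells it had 329 and 310 CPM at 6 weeks and 418 and 450 CPM at 18 weeks, a rise of 0.44 ± 0.11 (edgeR adjusted p 0.0381). The third pair was CLK2A in bipolar cells, with 0.45 ± 0.11 (edgeR adjusted p 0.0330). The 6-week and 18-week libraries did not overlap for CLK4A in either type, an upward separation seen in 23.1% of all gene and type pairs.

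Among tissue-specific splicing regulators (275 pairs, 2 higher and 2 lower), ELAVL3, a neuronal RNA-binding protein, had 19.0 and 16.0 CPM at 6 weeks and 5.77 and 8.04 CPM at 18 weeks in bipolar cells. It fell by 1.32 there (SE 0.20, edgeR adjusted p 0.00287) and by 1.92 in horizontal cells (SE 0.42, edgeR adjusted p 0.0175). In horizontal cells ELAVL3 had 22.7 and 12.9 CPM at 6 weeks and 7.07 and 2.45 CPM at 18 weeks. Both falls were thus at low levels. Over all cells ELAVL3 had 195 and 221 CPM at 6 weeks and 135 and 123 CPM at 18 weeks, a fall of 0.69 (SE 0.13, edgeR adjusted p 0.0430). In that sum 1 of 39 entries of this list was called higher and 2 lower, beside 3.63% of all genes called. Over these ages amacrine cells went from 11.5% to 7.42% of cells, ganglion cells from 3.46% to 2.17% and rods from 7.79% to 13.0%. The part of such shifts in the fall of ELAVL3 over all cells was not tested. In horizontal cells MBNL1 and MSI1(1OF2), RNA-binding proteins that regulate splicing and translation, rose by 1.77 ± 0.26 and 0.63 ± 0.13 (edgeR adjusted p 0.00119 and 0.0128). MBNL1 was also low, at 6.89 and 10.1 CPM at 6 weeks and 29.2 and 29.4 CPM at 18 weeks. Among hnRNP proteins with other names (102 pairs), PCBP2 rose in bipolar cells and PCBP4 in horizontal cells, by 0.46 and 1.89. PCBP3 fell in bipolar cells by 1.22 and PCBP3(2OF2) in cones by 1.56 (edgeR adjusted p 0.00560 to 0.0415 for all of these). The changes of PCBP4, PCBP3 and PCBP3(2OF2) were at low levels. PCBP4 had 1.48 and 2.76 CPM at 6 weeks and 7.07 and 8.98 CPM at 18 weeks in horizontal cells. PCBP3 had 13.0 and 11.5 CPM at 6 weeks and 4.98 and 5.51 CPM at 18 weeks in bipolar cells. PCBP3(2OF2) had a mean of 23.7 CPM at 6 weeks and 7.86 CPM at 18 weeks in cones.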

How the data were processed

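Single-cell RNA-seq of killifish neural retina (10x Genomics v3 3′) was analysed from the deposited UMI counts, which the authors made with Cell Ranger 7.0.1 on a custom transcriptome (GRZ assembly, NCBI annotation merged with long-read transcripts of the telencephalon), followed by Monocle3 filtering and clustering. The deposited cell types were used as given. The sources used here do not give how doublets were treated, and no doublet caller was run. The custom annotation decides which reads of duplicate genes are counted, and the gene table gave no coordinates. The columns of per-sample values not used numbered 0.

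Counts were summed per library, for all cells and for 10 cell types. Tests used edgeR 4.0.16 quasi-likelihood fits with TMM scaling, filterByExpr and age as a factor of 3 levels, adjusted over all genes tested; limma 3.58.1 tested within-library differences (prior count 2, at least 20 CPM in 1 of the types used); DESeq2 1.42.0 was an alternative. The study's own regression was run over single cells, and sums per library were used in its place. The library, a pool of fish, was the replicate. Other alternatives were RLE factors, library totals, no filter, a replicate block, the 4 libraries compared, a linear trend, a prior count of 0.5 for limma, bipolar cells without cluster 10, thinning to 1000 UMIs per cell (cells of every library had more) and leaving out each library, where a lone library is assumed to vary like the others.

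The genes named were each member called in all cells or at least 2 types, the called member with the largest rise and with the largest fall in each type, the member with the highest mean per name group, the 3 highest and 3 lowest tau, and the 2 smallest p-values of each limma test. Members, lists and rules were chosen with earlier results of these data known. RefSeq names (assembly NfurGRZ-RIMD1, used for names alone) matched 34 of 50 entries. The SD of a cell type's share is over the 2 libraries of an age, and shares of cells with a UMI are pooled over libraries and given without an error.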

Additional observations from a re-analysis of the deposited data

How the results depend on the processing

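In the sum of all cells, 1 entry was called between 6 and 18 weeks; DESeq2 called 2, a linear trend over age 2 and thinning to 1000 UMIs per cell 0, and leaving out 1 library gave 0 to 1. Of the pairs of an entry and a type 11 were called; DESeq2 called 3, a linear trend 5, thinning 4, and leaving out 1 library gave 1 to 14, with 1 without 18-week replicate 2. A fit with the replicate number as a block called 7 pairs, all among the 11. Some alternatives called pairs outside the 11. HNRNPUA in horizontal cells, named after its values were seen, was called with library totals, no filter and only the 4 libraries compared. Its changes there were 0.56, 0.52 and 0.49 (edgeR adjusted p 0.0369, 0.0245 and 0.0421). Same-numbered libraries correlated at -0.262 to 0.384 in their deviations from the age means, so the numbers were not taken to pair libraries. Between 12 and 18 weeks 2 pairs were called; the count was 6 with no filter, 1 with only the 4 libraries compared, 1 with thinning and 0 to 3 without 1 library. The counts between 6 and 12 weeks and of both limma tests were 0 under each alternative run. No called change turned its direction. The cause of these shifts was not tested.

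With library totals in place of TMM, the median log2 fold change of all genes moved by 0.10 in amacrine cells and by less in the other types. With 2 libraries per age, few cells of oligodendrocytes and immune cells, and few UMIs for sparse entries, modest changes there were not detectable.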
